A study of Mus musculus with 6 samples.

Results

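The genes described here encode the enzymes that hydroxylate collagen prolines and lysines, together with P3h4, a relative of the prolyl 3-hydroxylases without a catalytic domain. They were chosen by name as 10 genes: P4ha1, P4ha2 and P4ha3, P3h1, P3h2, P3h3 and P3h4, and Plod1, Plod2 and Plod3. All 10 were found by symbol among the 55414 genes of the deposited table, and all 10 passed the expression filter, which asked that 3 or more of the 6 libraries reach a value of 1 and left 13972 genes to test. RNA was sequenced from TM4, a line from mouse testis that serves as a model of Sertoli cells, in 3 control and 3 VC libraries. The labels are at odds on the agent that VC received: the series title names vitamin C, while the sample field for the agent and the design text name valine. The group is therefore called VC. Controls carry only the label control, no vehicle, dose or exposure time is given, and both groups are the same male line. No label states that replicates were separate cultures, so p-values measure the spread between these 6 libraries, which may be technical.

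Collagen chains are hydroxylated in the endoplasmic reticulum before they fold into a triple helix. The enzymes need iron, oxygen and 2-oxoglutarate, and ascorbate keeps their iron reduced, which is why a lack of vitamin C causes scurvy. Prolyl 4-hydroxylase pairs a catalytic alpha subunit, the product of P4ha1, P4ha2 or P4ha3, with protein disulfide isomerase from P4hb, and its product 4-hydroxyproline stabilises the helix. Prolyl 3-hydroxylases modify a few selected prolines. Lysyl hydroxylases, the Plod products, prepare lysines for cross-linking and for the addition of sugars. In the testis, type IV collagen forms part of the basement membrane of the seminiferous tubule, to which Sertoli cells attach.

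P4ha1 fell in VC to 77.8% of the control mean, and it alone of the 10 members passed limma's threshold, an adjusted p under 0.05. That is 1 of 10, against 0.687% of all tested genes, made up of 0.429% called higher and 0.258% called lower. The fall of P4ha1 was already known when the members were chosen, so this count is a description. In RNA from whole cultures, fewer cells of a type and less RNA per cell cannot be told apart. Among the genes for partner proteins, Crtap, the helper of prolyl 3-hydroxylase 1, fell by a like amount. The other 9 members did not pass the threshold. Unadjusted p-values under 0.05 were given by limma for 2 of the 10 members, P4ha1 and P3h4, beside 17.2% of all tested genes. The 3 VC values lay wholly on one side of the 3 control values for 4 members, 3 lower in VC (P4ha1, P3h4 and Plod1) and 1 higher (P3h2). Over all tested genes the share without overlap was 25.6%, with 13.9% higher and 11.6% lower in VC. The median log2 fold change of the 10 members was -0.07, against 0.01 for all tested genes.

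The libraries held 20408427 to 22316855 reads over genes of known length, recovered from the values, and each pair of libraries differed by more than counting noise. The third control library was the most distant: its reads gave a chi-square per degree of freedom of 9.57 to 17.2 against each other library, where pairs without it gave 2.78 to 7.28. Of 12 Sertoli markers, Gata4, Kitl, Sox9, Inha, Gdnf and Amh passed the filter. Wt1, Fshr, Dmrt1 and Shbg were listed at 0 in all 6 libraries, and Cldn11 and Clu stayed low. The 12 summed to 45.5 to 48.4 in control and 50.8 to 52.0 in VC. Marker lists of germ cells (5 genes), macrophages (4), endothelium (4) and Leydig cells (5) summed to at most 0.204, 5.81, 2.25 and 3.53 in any library. The 4 peritubular myoid markers summed to 605.0 to 663.3 in control and 389.9 to 398.3 in VC, nearly all of it Acta2, while Myh11 was at most 0.032. Of the 2 tested, Acta2 was called lower (log2 fold change -0.68, limma adjusted p = 0.011), beside 0.258% of all tested genes. Cnn1 was lower without overlap but was not called (log2 fold change -0.57, limma adjusted p = 0.0672). The 32 tested mitochondrially encoded genes had a median log2 fold change of -0.12 with 2 called lower, beside 0.258% of all tested genes. Of the 32, 12 had an unadjusted limma p under 0.05, beside 17.2% of all tested genes. All VC values lay below all control values for 12 of them, beside 11.6% of all tested genes. The 76 ribosomal protein genes had a median of -0.11 with 0 called by limma. Of the 76, 21 had an unadjusted limma p under 0.05, beside 17.2% of all tested genes, and 35 lay wholly lower in VC, beside 11.6%. Fold changes were below 0 for 26 of the 32 mitochondrial and 71 of the 76 ribosomal genes, beside 6467 of all 13972 tested genes. The part of these differences in the results below was not tested.

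**Figure D1:**
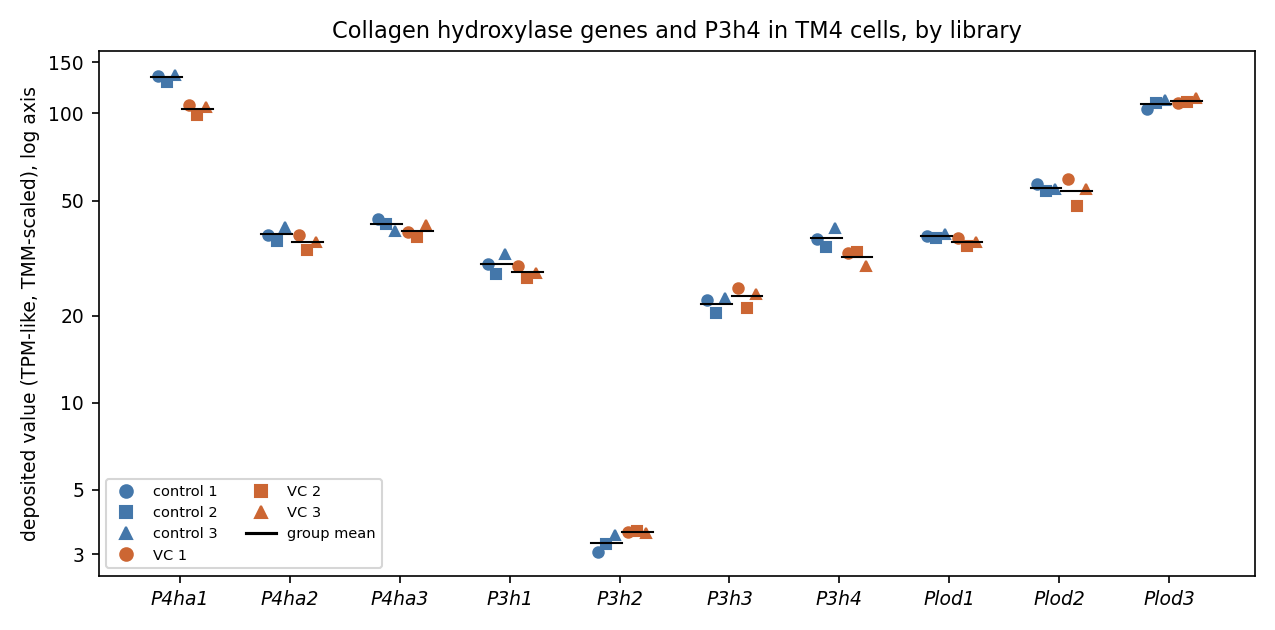
Deposited values of the 10 genes in each library, on a log axis, control in blue and VC in orange, with the replicate shown by marker shape and the group mean by a black bar. The 3 VC values of P4ha1 (98.6 to 106.9) lie below its 3 control values (128.5 to 136.2), while P3h2 stays under 4 in all libraries.

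Values on this scale are per length of all annotated exons of a gene, not of the transcripts expressed. Levels, family shares and ratios therefore compare different genes only roughly. P4ha2, with 6239 such bases, had 1628 to 2106 reads per library, and P4ha3, with 3135, had 904 to 1049. The levels spanned a wide range. P4ha1 and Plod3 were highest, with means over the 6 libraries of 118.4 and 109.1 and overlapping ranges. Plod2 followed at 54.6, separate from its neighbours in the order. P4ha3 (40.3), P4ha2 (37.1), Plod1 (36.8), P3h4 (34.6) and P3h1 (29.2) formed a run in which each gene's range overlapped that of the next. P3h3, at 22.7, and P3h2, at 3.42, lay below them without overlap. P3h2 rested on 88 to 109 reads per library, while the other members had from 522 to 4652.

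Of the prolyl 4-hydroxylase alpha subunit genes, 1 of 3 passed the threshold. P4ha1 (ENSMUSG00000019916), the main catalytic subunit in most cell types, was at 134.8, 128.5 and 136.2 in control replicates 1 to 3 and at 106.9, 98.6 and 105.1 in VC replicates 1 to 3. All VC values were below all control values, and the gap between the groups was wider than the range within either. The mean went from 133.2 ± 4.09 to 103.5 ± 4.41 (SD, n = 3 per group), a fall of P4ha1 by 0.36 on the log2(value + 1) scale (SE 0.044, 95% interval -0.46 to -0.26, limma adjusted p = 0.0293). P4ha1 had the 38th smallest p-value of all tested genes, and its mean level exceeded that of 91.0% of them. The direction held in each of 17 alternative fits, with log2 changes from -0.39 to -0.29, but the call was lost in 9 of them. Limma's adjusted p was 0.0669 without the filter, 0.0967 without an intensity trend and 0.108 with same-numbered libraries fitted as a block. It was 0.116, 0.0853 and 0.0526 without control replicates 1, 2 and 3, and 0.0985, 0.127 and 0.14 without VC replicates 1, 2 and 3.

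P4ha2, whose product forms a second type of the enzyme that is prominent in cartilage and endothelium, was at 38.0, 36.3 and 40.7 in control and 37.9, 33.9 and 36.1 in VC. Its groups overlapped, and its log2 fold change was -0.09 (95% interval -0.23 to 0.05, limma adjusted p = 0.48). P4ha3, the third alpha subunit, was at 43.2, 41.6 and 39.2 in control and 38.8, 37.4 and 41.3 in VC. These groups overlapped too, with a log2 fold change of -0.08 (95% interval -0.20 to 0.05, limma adjusted p = 0.516).

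The summed value of the 3 alpha subunit genes was 212.8 ± 5.56 in control and 178.7 ± 7.66 in VC. P4ha1 supplied 62.4%, 62.3% and 63.0% of that sum in the control libraries and 58.2%, 58.0% and 57.6% in the VC libraries. Its mean share went from 62.6% ± 0.41 to 58.0% ± 0.312, while P4ha2 went from 18.0% ± 0.703 to 20.1% ± 0.462 and P4ha3 from 19.4% ± 1.11 to 21.9% ± 0.746. None of these 3 shares overlapped between the groups. Shares of a family add up to a whole, so a lower share of P4ha1 by itself raises the sum of the others. The mean values of P4ha2 and P4ha3 were slightly lower in VC, going from 38.3 to 35.9 and from 41.3 to 39.2. Each share gave a two-sided p of 0.1 in an exact permutation test, the smallest that 3 against 3 libraries allow, and 0.171 after adjustment over 12 shares and sums. The fall of P4ha1 was known when these tests were chosen, so the p-values only describe. The log2 ratio of P4ha1 to P4ha2 was 1.80 ± 0.046 in control and 1.53 ± 0.027 in VC, and that of P4ha1 to P4ha3 was 1.69 ± 0.093 and 1.40 ± 0.057, again without overlap (exact permutation p = 0.1, adjusted to 0.18 over 9 pairs). The log2 ratio of P4ha2 to P4ha3 overlapped between the groups, at -0.11 ± 0.14 and -0.12 ± 0.082. Lack of overlap was not particular to P4ha1. Of the 9 pairs, 5 did not overlap, among them P3h1 to P3h2, P3h1 to P3h3 and Plod1 to Plod3. Of the 12 shares and sums, 7 did not overlap. Most of the difference in the sum was that of P4ha1: of a mean difference of -34.2 in the summed value, -29.6 came from P4ha1, -2.39 from P4ha2 and -2.16 from P4ha3.

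**Figure D2:**
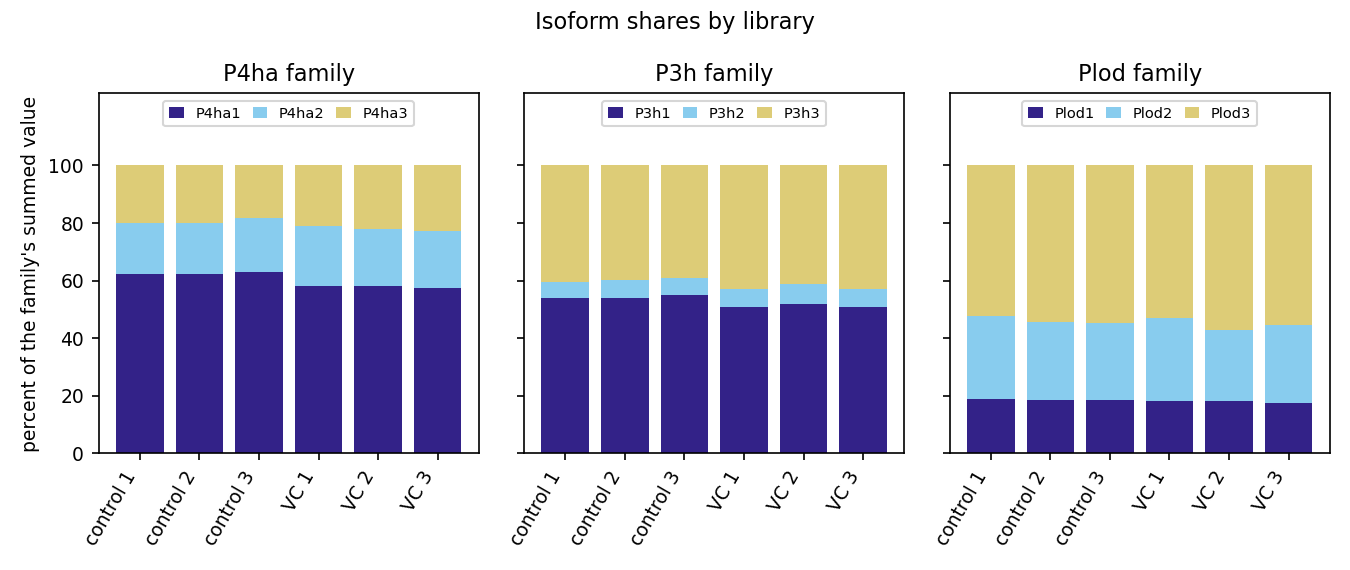
Percent of each family's summed value supplied by each of its 3 genes, stacked, in each library (control on the left, VC on the right of each panel). The P4ha1 segment stands at 62.3% to 63.0% in control and 57.6% to 58.2% in VC, and the Plod2 and Plod3 segments vary as much within groups as between them.

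The promoters of the 3 alpha subunit genes are shown because P4ha1 alone of them passed the threshold and P4ha1 and P4ha2 are known targets of the hypoxia-inducible factors (HIF). RefSeq promoter sequences on build GRCm38.p6 were matched for 7 of the 10 members, in 8 windows; P3h2, P3h4 and Plod2 had no entry. The windows hold the 250 bases before the gene start, 5′ to 3′ on the strand of the gene, which is the plus strand for all 3. They lie at chr10:59323046-59323295 for P4ha1, chr11:54100674-54100923 for P4ha2 and chr7:100285270-100285519 for P4ha3. Capitals mark ACGTG or GCGTG, the core letters of the hypoxia response element, on either strand (CACGT or CACGC when read on the other strand).
P4ha1: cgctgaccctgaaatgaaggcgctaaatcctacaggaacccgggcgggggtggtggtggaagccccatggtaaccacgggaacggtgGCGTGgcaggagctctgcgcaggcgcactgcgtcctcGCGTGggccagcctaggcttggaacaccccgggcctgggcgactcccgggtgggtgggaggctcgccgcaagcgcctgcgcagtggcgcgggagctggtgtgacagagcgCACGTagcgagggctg
P4ha2: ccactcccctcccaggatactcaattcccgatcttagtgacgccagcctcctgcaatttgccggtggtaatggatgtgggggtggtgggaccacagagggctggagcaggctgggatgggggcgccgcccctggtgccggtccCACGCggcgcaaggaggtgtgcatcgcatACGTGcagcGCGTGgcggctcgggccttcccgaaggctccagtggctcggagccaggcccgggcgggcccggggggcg
P4ha3: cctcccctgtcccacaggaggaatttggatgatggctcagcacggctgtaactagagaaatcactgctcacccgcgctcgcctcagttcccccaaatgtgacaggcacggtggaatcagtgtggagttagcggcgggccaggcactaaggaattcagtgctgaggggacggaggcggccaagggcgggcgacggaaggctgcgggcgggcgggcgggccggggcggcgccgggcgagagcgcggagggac
P4ha1 held 3 matches, 2 of GCGTG and 1 of ACGTG, the last of which begins 16 bases before the start. P4ha2 held as many of each kind, and P4ha3 held none. Among all 32851 promoter windows of this length, 16.6% held ACGTG, 28.2% GCGTG and 38.6% either. Whether such matches bear on the expression values was not tested. Of the other members, Plod3 held 4 matches, Plod1 held 1, each of the 2 windows of P3h1 held 2 and P3h3 held none. A match is a match of letters and not a bound site.

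The prolyl 3-hydroxylases showed no called change. P3h1, whose product modifies a specific proline of type I collagen in a complex with Crtap and cyclophilin B, was at 30.2, 27.8 and 32.7 in control and 29.6, 27.0 and 28.2 in VC. The groups overlapped, and the log2 fold change was -0.09 (95% interval -0.25 to 0.07, limma adjusted p = 0.537). P3h2, which acts on basement membrane collagen, was at 3.05, 3.25 and 3.50 in control and 3.57, 3.59 and 3.54 in VC. Its VC values lay just above the highest control value, with a log2 fold change of 0.10 (95% interval -0.12 to 0.32, limma adjusted p = 0.617). Over 28.4% of the exon length of P3h2 an unrelated gene, Gm4524, lies on the opposite strand, and since the labels do not say that strand was kept, reads of the pair cannot be told apart; Gm4524 itself reached at most 1.02. P3h3, which works with P3h4 on lysyl hydroxylation, was at 22.6, 20.4 and 23.0 in control and 24.9, 21.3 and 23.7 in VC, with overlapping groups and a log2 fold change of 0.08 (95% interval -0.10 to 0.25).

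Within this family P3h1 supplied 54.4% ± 0.672 of the summed value in control and 51.3% ± 0.614 in VC, and P3h3 39.7% ± 0.789 and 42.2% ± 0.986. Neither share overlapped between the groups, and each gave the smallest exact permutation p, 0.1, or 0.171 after adjustment over the 12 shares and sums. P3h2 supplied 5.90% ± 0.419 and 6.48% ± 0.396, with overlap. The summed value was 55.5 ± 3.90 in control and 55.1 ± 3.09 in VC.

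P3h4 (ENSMUSG00000006931), also known as Sc65, is a scaffold protein that joins P3h3 and lysyl hydroxylase 1 in the endoplasmic reticulum. It was at 36.9, 34.5 and 40.1 in control and 33.0, 33.3 and 29.8 in VC, so all VC values were below all control values, though VC replicate 2 and control replicate 2 lay close together. After P4ha1 it had the largest difference among the members, with a log2 fold change of -0.21 (SE 0.069, 95% interval -0.37 to -0.04), and it did not pass the threshold (limma adjusted p = 0.204). No alternative fit called it, with limma adjusted p from 0.135 to 0.457 and log2 changes from -0.26 to -0.14. Set against its partner, P3h4 was at 168.8% ± 5.29 of P3h3 in control and 138.2% ± 15.98 in VC. The highest VC value of this ratio, 156.1%, was below the lowest control value, 163.4%; the ratio was chosen after the values were seen and is given without a test.

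None of the lysyl hydroxylases passed the threshold. Plod1, whose product acts on lysines within the helix and is deficient in a form of Ehlers-Danlos syndrome, was at 37.6, 37.15 and 38.3 in control and 37.0, 34.8 and 36.0 in VC. The groups were separated only by the small step between control replicate 2 and VC replicate 1, and the log2 fold change was -0.07 (95% interval -0.16 to 0.03, limma adjusted p = 0.447). Plod2, which modifies the lysines of the non-helical ends from which cross-links of stiff tissue are made, was at 57.0, 54.0 and 54.6 in control and 59.3, 47.8 and 54.8 in VC. Here the VC libraries spread more widely than the controls, from below all of them to above all of them, with a log2 fold change of -0.04 (95% interval -0.22 to 0.15, limma adjusted p = 0.841). Plod3, which also adds sugars to hydroxylysine, was at 103.5, 108.3 and 111.5 in control and 108.5, 109.3 and 113.3 in VC. It had overlapping groups and a log2 fold change of 0.03 (95% interval -0.06 to 0.13, limma adjusted p = 0.699). With libraries scaled to equal totals, which moved the median of all genes from 0.01 to 0.08, the log2 fold changes of Plod1 and Plod2 became 0.005 and 0.034. Plod3 overlaps Znhit1 on the opposite strand and Mir702 on the same strand over 11.9% of its exon length, and an overlapping gene reached 63.3. Since the labels do not say that strand was kept, the values and family share of Plod3 may include reads of these genes. Gm38391 covers 6.42% of Plod2 on the opposite strand and reached 1.11.

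The summed value of the Plod genes was 200.6 ± 3.36 in control and 200.3 ± 7.31 in VC. Plod3 gave the most, 53.7% ± 1.27 of the sum in control and 55.1% ± 2.02 in VC, and Plod2 gave 27.5% ± 1.10 and 26.9% ± 2.02, both with overlap. Plod1 gave 18.8% ± 0.18 and 18.0% ± 0.263 without overlap (exact permutation p = 0.1, 0.171 after adjustment).

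**Figure D3:**
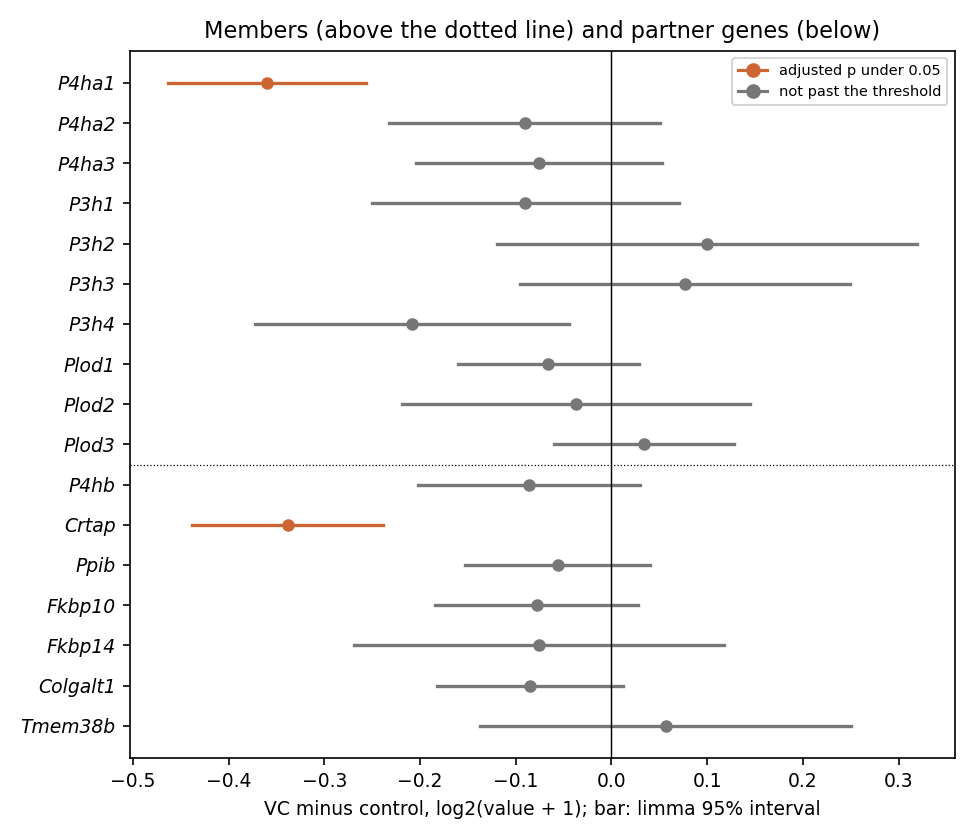
Log2 fold change of VC minus control with limma's 95% interval for the 10 members (above the dotted line) and the 7 tested partner genes (below); orange marks an adjusted p under 0.05. P4ha1 at -0.36 and Crtap at -0.34 stand to the left. Among the others only the interval of P3h4, -0.37 to -0.04, lies wholly below 0.

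Of 8 genes for proteins that work with these enzymes, 7 passed the filter. Of these, 1 fell, beside 0.258% of all tested genes called lower, 0 rose and 6 did not pass the test. The median log2 fold change of the 7 was -0.08. The one that fell was Crtap, the cartilage-associated protein, which forms the prolyl 3-hydroxylation complex with P3h1 and is mutated in a recessive form of brittle bone disease. Crtap was at 124.1, 129.8 and 136.9 in control and 103.4, 102.4 and 102.5 in VC. The VC values lay close together and well below the lowest control, and the mean went from 130.3 ± 6.41 to 102.7 ± 0.545, a fall of Crtap by 0.34 on the log2 scale (SE 0.042, limma adjusted p = 0.0306). The call held without control replicate 3 (adjusted p = 0.0361) and was lost without any other single library, at 0.0862 and 0.107 without control replicates 1 and 2 and at 0.126, 0.156 and 0.162 without VC replicates 1, 2 and 3. It was also lost without the filter (0.0677), without an intensity trend (0.0967) and with same-numbered libraries fitted as a block (0.131).

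The genes for the other members of that complex did not pass the threshold. Ppib, cyclophilin B, was at 84.9, 84.6 and 91.0 in control and 82.3, 82.6 and 85.4 in VC, with overlap and a log2 fold change of -0.06. P3h1 stood at 23.2% ± 1.56 of the level of Crtap in control and 27.5% ± 1.15 in VC, and Crtap at 149.99% ± 3.66 and 123.2% ± 2.91 of Ppib, neither with overlap. P3h1 relative to Ppib overlapped, at 34.7% ± 1.68 and 33.9% ± 1.85. These ratios were formed after the values were seen and carry no test.

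P4hb, the beta subunit of prolyl 4-hydroxylase and an abundant disulfide isomerase in its own right, was at 868.7, 855.7 and 944.9 in control and 855.9, 807.8 and 848.8 in VC. Its groups overlapped, with a log2 fold change of -0.09 (limma adjusted p = 0.412). The alpha subunit genes summed to 24.0% ± 1.01 of P4hb in control and 21.3% ± 0.262 in VC, and P4ha1 alone was at 14.98% ± 0.551 and 12.4% ± 0.148 of it. In both groups the value of P4hb, per length, was thus above the sum of the 3 alpha subunit genes. Fkbp10, a prolyl isomerase on which lysyl hydroxylase 2 depends, had a log2 fold change of -0.08, and its relative Fkbp14 also had -0.08. Colgalt1, which adds galactose to hydroxylysine, had -0.09, and Tmem38b, an endoplasmic reticulum cation channel, had 0.06. Colgalt2 reached at most 0.085 and was not tested.

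Of 21 genes for collagen folding, export and extracellular processing, 19 were tested and 0 were called by limma. An unadjusted p under 0.05 was given by limma for 6 of the 19, beside 17.2% of all tested genes. The median log2 fold change of the 19 was -0.04. Limma-voom on recovered reads and limma with library weights each called 1 of them. That gene was Serpinh1, the collagen chaperone Hsp47, which went from 1136 ± 31.2 to 994.7 ± 16.4 without overlap (log2 fold change -0.19, limma adjusted p = 0.0733). Sparc, a collagen-binding matrix protein, was at 266.4 ± 11.7 and 243.9 ± 2.40, and Kdelr2, a receptor that returns proteins to the endoplasmic reticulum, at 246.4 ± 23.9 and 218.9 ± 3.62. Pcolce, an enhancer of procollagen cleavage, was at 255.2 ± 8.68 and 258.0 ± 4.52.

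The substrates of the enzymes varied widely in level: Col15a1 was listed at 0 in all libraries, and Col1a1 was the most abundant chain. Of 27 collagen chain genes 18 were tested, 9 stayed under the filter and 0 were called by limma. An unadjusted p under 0.05 was given by limma for 4 of the 18, beside 17.2% of all tested genes. Limma-voom also called 0, and the median log2 fold change was 0.04. Col1a1 and Col1a2, the chains of type I collagen, were at 670.7 ± 9.62 and 389.1 ± 5.84 in control and 634.9 ± 12.7 and 377.4 ± 5.79 in VC. Col4a1 and Col4a2, the common chains of type IV collagen, were at 252.6 ± 10.04 and 229.2 ± 14.7 in control and 240.9 ± 7.49 and 225.1 ± 8.79 in VC.

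Other iron and 2-oxoglutarate hydroxylases, which share the cofactors but not the collagen substrate, gave 8 tested genes of 11 listed. Limma called 0 and gave an unadjusted p under 0.05 for 1 of the 8, beside 17.2% of all tested genes. The median log2 fold change was 0.003, and limma-voom called 0. The one with the smallest p was Egln1, the main hydroxylase of the HIF alpha subunits, at 91.8 ± 2.98 in control and 81.7 ± 3.12 in VC (log2 fold change -0.17, limma adjusted p = 0.13). Jmjd6, Egln2 and Ogfod1, the next most abundant, had log2 fold changes of -0.04, 0.07 and -0.01. P4htm, the transmembrane prolyl hydroxylase whose name resembles those of the collagen enzymes, stayed under the filter at 0.267 or less.

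P4ha1 is a HIF target, and of 18 genes of the HIF pathway and its targets 15 were tested. Of these, 4 fell, beside 0.258% of all tested genes called lower, 0 rose and 11 did not pass. The median of the 15 was -0.01. The 4 were the glycolytic genes Pfkl, Pgk1, Ldha and Eno1, with log2 fold changes of -0.51, -0.37, -0.36 and -0.25 (limma adjusted p = 0.0167, 0.0348, 0.0438 and 0.0402). All 4 kept the call without control replicate 3, and none was called without any other single library. The remaining 11 did not pass. An unadjusted p under 0.05 was given by limma for 10 of the 15, beside 17.2% of all tested genes. These were the 4 called genes and 6 others with changes in both directions. Among these 6, Pdk1 and Vhl had log2 fold changes of -0.35 and -0.18, while Ndrg1, Ero1a, Ddit4 and Arnt had 0.34, 0.33, 0.17 and 0.13 (limma adjusted p = 0.216, 0.279, 0.0633, 0.23, 0.289 and 0.227 in that order). Ndrg1, higher in all VC libraries, was called in 4 alternatives: a filter of 5, equal totals, library weights and limma-voom. The last 5, Hif1a, Vegfa, Slc2a1, Bnip3 and Ankrd37, had log2 fold changes from -0.01 to 0.10. These 11 genes were named after their values were seen, and P4ha1 and the glycolytic genes were known to be lower when the list was made.

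The gene with the profile most like that of P4ha1 was Pgk1. Likeness was the root mean square difference over the 6 libraries between log2 profiles, each centred on its mean, among 11055 named genes. It was 0.023 for Pgk1, 0.027 for Id3, which holds basic helix-loop-helix proteins off DNA, 0.033 for Kctd15, 0.035 for Ldha and 0.041 for mt-Tl1, a mitochondrial transfer RNA gene. Kctd15 was not called (limma adjusted p = 0.245). Its values, 1.56 to 2.44, lay near the filter, where log2(value + 1) understates differences. Pgk1 was at 982.6, 955.7 and 1046 in control and 797.8, 734.2 and 776.2 in VC, so that control replicate 3 was highest and VC replicate 2 lowest, as for P4ha1. Id3 showed the same order at its extremes, with 44.3 in control replicate 3 and 31.9 in VC replicate 2.

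**Figure D4:**
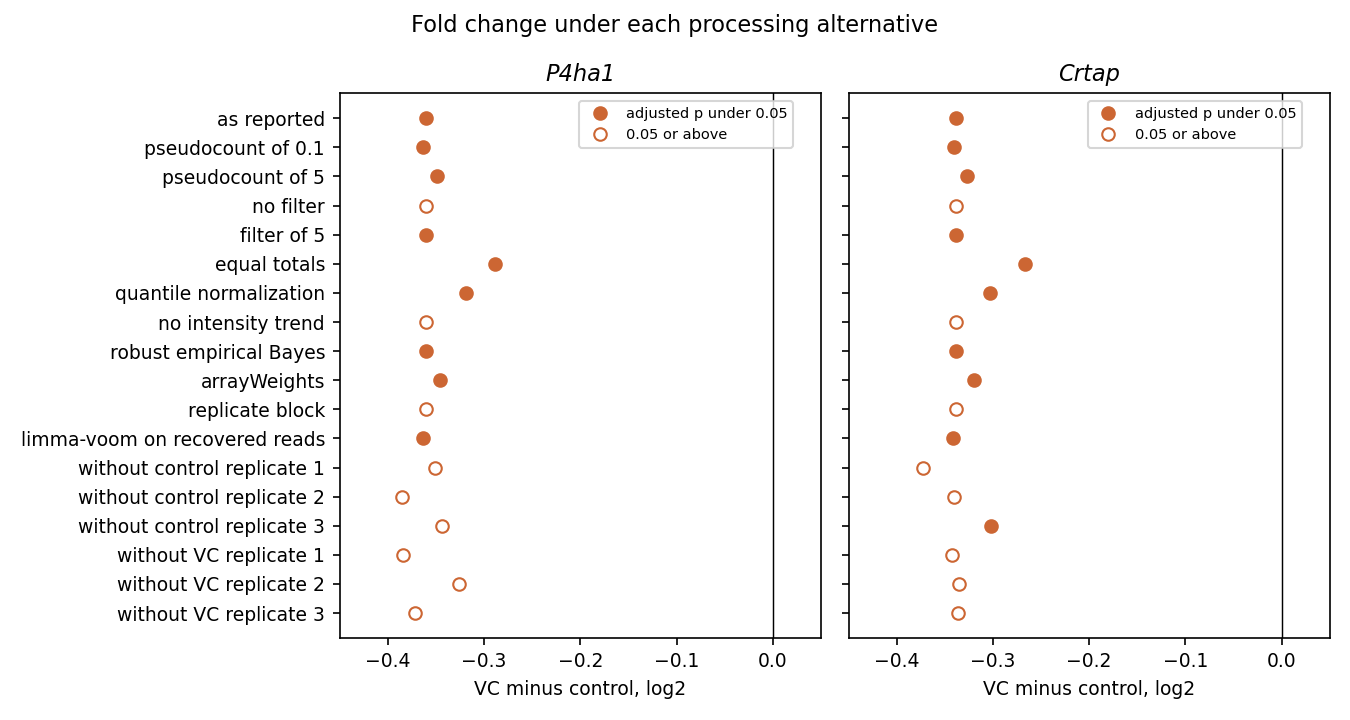
Log2 fold change of P4ha1 (left) and Crtap (right) as reported and under each of 17 alternatives, filled where limma's adjusted p is under 0.05 and open where it is not. All points lie below 0, from -0.39 to -0.29 for P4ha1 and from -0.37 to -0.27 for Crtap, while the call is lost in 9 fits for P4ha1 and 8 for Crtap.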

How the data were processed

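Gene expression was measured by RNA sequencing of TM4 cells in 3 control and 3 VC libraries, from Trizol RNA and TruSeq libraries per the labels' protocols. Reads were aligned with HISAT2 to GRCm39 per the submitters' processing notes; for the counting tool, the annotation and the strand setting, the sources used here state nothing. Each gene has 1 deposited signal value per library, scaled by the authors (TMM, from the name of the table) and behaving as TPM times 1 factor per library. Symbols and exon lengths came from GENCODE M21 (GRCm38). Value times length gave whole multiples of 1 read for 98.8% to 98.9% of values (within 0.1 read, up to 1000 reads), from which depths of 20408427 to 22316855 reads followed.

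Genes that reached 1 in 3 or more libraries were tested with limma 3.58.1 (R 4.3.3) on log2(value + 1). The two-sided test of VC against control used an intensity trend, and p-values were adjusted over all tested genes by Benjamini-Hochberg, with a threshold of 0.05. Fold changes on this scale understate those of low genes. Shares and ratios were tested by exact permutation over libraries. The fit was checked only on simulated libraries of equal spread, none of them more distant than the rest. Such a check cannot show how the calls depend on single libraries in these data. Alternatives changed the pseudocount, filter, scaling, trend, weights, block and libraries, or used limma-voom on recovered reads; those for the ratios between members were added after the data were seen. Tables came from pandas 2.3.3 and numpy 2.4.6 under Python 3.11.15, plots from matplotlib 3.10.9.

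The members, lists and tests were chosen with earlier results of these data known. Genes were named by rule: all members and partner genes; in each other list those past the threshold, or else the 4 most abundant; and the 5 genes most like P4ha1. P4htm, Col15a1 and the HIF genes without a call were named after their values were seen.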

Additional observations from a re-analysis of the deposited data

How the results depend on the processing

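Of 169 fold changes of the members under alternative fits, 157 kept their direction and side of the threshold, 9 lost the call (all P4ha1) and 3 changed sign, none of them called. Of those, Plod1 became 0.0048 and Plod2 0.0341 with equal totals, and Plod2 0.0463 without VC replicate 2. P4ha1 stayed at -0.3603 without a filter and without an intensity trend, where the count of called members became 0 and that of partners 0. Leaving out each library gave P4ha1 -0.39 to -0.33, with 0 members called and 0 to 1 partners. The replicate block gave P4ha1 -0.3603 at limma adjusted p = 0.108, with 0 members, 0 partners, 0 HIF genes and 0 genes in all called and 2039 at an unadjusted p under 0.05. Deviations of same-numbered libraries had correlations of -0.019, -0.011 and 0.005, where those of other pairs ran from -0.033 to 0.047. Such values cannot show whether same-numbered libraries shared a culture or preparation, and no label states a pairing. With same-numbered libraries paired, an exact sign-flip test gave p = 0.25, its smallest, for the shares of P4ha1, P4ha2 and P4ha3.

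All called genes numbered 96, or 30 without a filter, 183 with a filter of 5, 217 with equal totals, 6 without a trend, 254 with library weights, 548 with limma-voom on recovered reads, and 0 to 82 with a library left out. Equal totals called 182 higher and 35 lower, against 60 and 36. HIF genes called were 1 without a filter, 2 after quantile normalization, 0 without a trend and 0 to 4 with a library left out; genes of folding and processing were 1 with weights and 1 with limma-voom. With a library left out, the VC minus control difference of the P3h sum ran from -2.373 to 1.515 (1.515 without control replicate 3, 1.266 without VC replicate 2) and that of the Plod sum from -2.639 to 3.84 (1.521 and 3.84 without the same libraries). The log2 change of Plod2 ran from -0.1064 to 0.0463. The Plod2 share difference ran from -1.637 to 0.3813 (0.0096 without control replicate 1, 0.3813 without VC replicate 2). The difference in the log2 ratio of P3h2 to P3h3 ran from -0.018 to 0.0996 (-0.0175 without control replicate 1, -0.018 without VC replicate 2). That of P4ha2 to P4ha3 ran from -0.0605 to 0.0648 (0.0648 without control replicate 3, 0.0196 without VC replicate 3). Those of Plod1 to Plod2 and Plod2 to Plod3 ran from -0.0909 to 0.0191 and from -0.155 to 0.0057, above 0 only without VC replicate 1 and VC replicate 2 respectively. The causes were not tested. Precision was lowest for P3h2, on 88 to 109 reads.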
